A study of Mus musculus with 16 samples.

Results

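The 9 genes described here, *Hoxa5*, *Hoxa7*, *Hoxa9*, *Hoxa10*, *Meis1*, *Mecom*, *Hlf*, *Mllt3* and *Procr*, were chosen by name as Hox and Meis genes and regulators or markers of hematopoietic stem cells, out of 47937 genes counted, and all 9 were among the 11831 genes with enough reads to be tested. Their RNA was measured by bulk RNA sequencing of MPP3 and MPP4 cells, multipotent progenitors of the bone marrow with a myeloid and a lymphoid bias, respectively. Both were sorted from C57BL/6 mice (C57BL/6J in the study's methods) as LSK (lineage-negative, Sca1-positive, Kit-positive) CD150- CD48+ cells, and MPP4 cells were in addition Flt3+. The labels do not state Flt3 for MPP3 cells, which the study defines elsewhere as Flt3-. Each of 8 mice gave 1 MPP3 and 1 MPP4 library, so that 16 libraries fell into 4 groups of 4. Per the sample labels, the mice labelled WT were Ebf1fl/fl Tie2Cre+/+ (floxed *Ebf1* alleles without Cre) and the mice labelled KO were Ebf1fl/fl Tie2Cre +/cre, in which the promoter of *Tek* (Tie2) drives Cre in endothelial and hematopoietic cells. The series description instead gives the Tie2Cre transgene to both groups and unfloxed *Ebf1* to the WT mice, so alleles and transgene cannot be told apart as the difference between the genotypes. The mice labelled WT were females of 12 and 11 weeks (numbers 1 and 2) and males of 12 and 11 weeks (numbers 3 and 4), and the mice labelled KO were males of 10 and 9 weeks (1 and 2) and females of 11 and 11 weeks (3 and 4). No mouse labelled KO was thus older than any mouse labelled WT, and among the mice labelled KO age and sex cannot be told apart.

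Hox genes lie in clusters and encode homeodomain transcription factors whose DNA binding is sharpened by partners of the TALE class, the Meis and Pbx proteins. In early hematopoiesis the Hoxa cluster is kept active by the Mll complex, and Hoxa9 with Meis1 sustains self-renewal in stem cells and in acute leukemias. *Mecom* (Evi1) and *Hlf* encode transcription factors of long-term stem cells, *Mllt3* (AF9) encodes a reader of acylated histones in elongation complexes recruited by Mll, and *Procr* encodes the endothelial protein C receptor, a surface marker of stem cells.

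Libraries held 24823708 to 48703193 counts. The sort markers followed the gates: *Flt3* averaged 280 and 246 CPM (counts scaled to TMM library sizes) in the MPP3 libraries labelled WT and KO against 1224 and 1005 CPM in the MPP4 libraries, *Kit*, *Cd48*, *Ptprc* and *Ly6a* were present in all groups, and *Slamf1* (CD150) averaged at most 2.29 CPM. *Ebf1*, the targeted gene, went against its label in MPP4, where counts of 817, 928, 488 and 642 under the KO label stood above those of 187, 98, 199 and 263 under the WT label (2.22 ± 0.64 on the log2 scale, edgeR FDR = 0.188). The MPP3 counts overlapped, at 5, 21, 91 and 82 for WT and 23, 6, 84 and 6 for KO. Gene counts do not show whether these reads come from a functional transcript, so genotypes are named by their labels and the directions of the comparisons between them rest on those labels.

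In mice labelled WT, *Meis1* and *Hlf* were higher in MPP3 than in MPP4 cells and *Hoxa9* was lower. Mice labelled KO showed the same 3 calls, together with higher *Procr* and *Mecom* and lower *Hoxa7* in MPP3. Calls are genes with a Benjamini-Hochberg FDR under 0.1 over all 11831 genes in edgeR's quasi-likelihood test. By this rule 3 of the 9 genes were called in WT, where 15.1% of all genes tested were called, and 6 of 9 in KO, where 17.9% were. MPP3 and MPP4 cells of a mouse were sorted from the same marrow, and with the mouse as a block 8 of the 9 genes were called in WT (all but *Hoxa5*, FDR = 0.367), against 24.8% of all genes. The blocked test called 6 of 9 in KO as well, against 28.3% of all genes. Whether called or not, the 4 Hoxa genes had lower means in MPP3 and the other 5 genes higher ones in both genotypes (the plot of population differences).

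**Figure D1:**
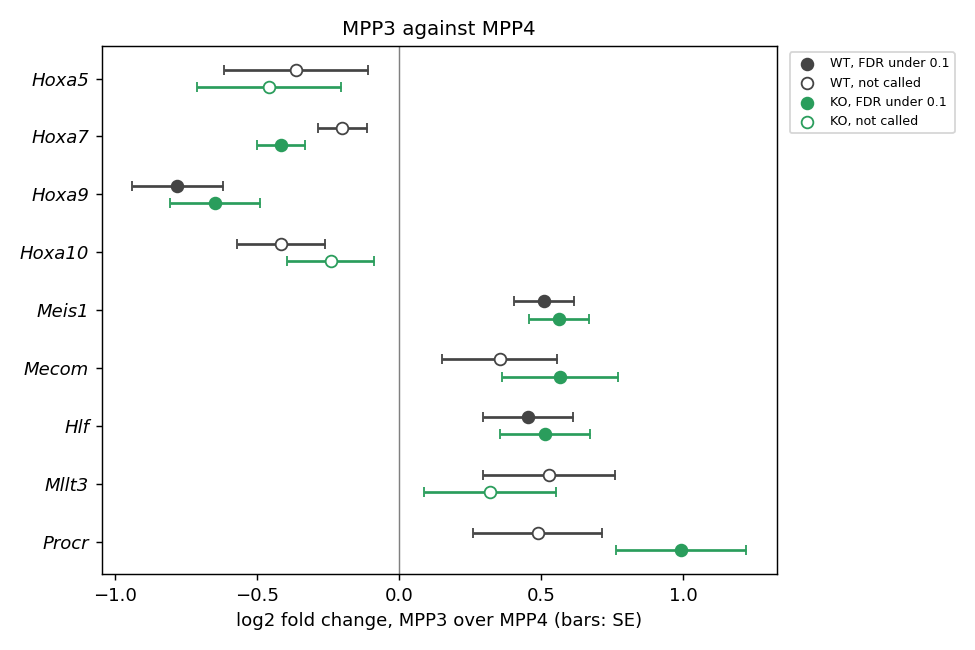
Log2 fold change of MPP3 over MPP4 (horizontal axis, bars are standard errors) for the 9 genes (vertical axis), in mice labelled WT (grey) and KO (green). Filled points are called at an FDR under 0.1, and all *Hoxa* points lie left of 0 while *Meis1*, *Mecom*, *Hlf*, *Mllt3* and *Procr* lie right of it.

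*Hoxa9* (ENSMUSG00000038227, chr6:52223100-52231089, GRCm38, minus strand), a Hox factor tied to stem cells and to leukemia, differed most among the 4 Hoxa genes in WT. Its level in MPP3 was 101, 121, 130 and 88.8 CPM in the libraries labelled WT and 88.9, 86.0, 101 and 93.5 CPM in those labelled KO. In MPP4 it was 182, 202, 225 and 149 CPM in the libraries labelled WT and 135, 103, 172 and 168 CPM in those labelled KO. No MPP4 library fell within the MPP3 range of its genotype. On the log2 scale MPP3 was lower by 0.78 in WT (-0.78 ± 0.16, SE, n = 4, edgeR FDR = 0.00307) and by 0.65 in KO (-0.65 ± 0.16, FDR = 0.0107), and *Hoxa9* was lower in MPP3 in 8 of 8 mice.

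*Meis1* (ENSMUSG00000020160, chr11:18879817-19018985, minus strand), the TALE homeodomain partner of Hoxa9, ran the other way. MPP3 libraries held 422, 407, 437 and 385 CPM in WT and 359, 287, 338 and 361 CPM in KO. MPP4 libraries held 299, 299.7, 311 and 248 CPM in WT and 207, 193, 232 and 278 CPM in KO. The populations did not overlap in either genotype, with a difference of 0.51 ± 0.11 (log2, edgeR FDR = 0.00341) in WT and 0.56 ± 0.11 (FDR = 0.00137) in KO, and all 8 mice had more *Meis1* in MPP3. The *Meis1* exons overlap those of the antisense gene *Gm16140* (1648 counts over all libraries) and of *Gm37818* (1571 counts), and since the use of strand in counting is not stated, reads of that stretch are uncertain.

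Because both genes differed in opposite directions, the number of *Hoxa9* counts per *Meis1* count set the populations far apart. It was 0.241, 0.298, 0.298 and 0.230 in MPP3 and 0.607, 0.673, 0.724 and 0.603 in MPP4 of the mice labelled WT. In mice labelled KO it was 0.248, 0.300, 0.298 and 0.259 in MPP3 and 0.652, 0.531, 0.743 and 0.605 in MPP4. The lowest MPP4 ratio, 0.531, was thus above the highest MPP3 ratio, 0.300. Between genotypes the means were close: 0.267 ± 0.036 (SD, n = 4) and 0.276 ± 0.027 in MPP3, 0.652 ± 0.058 and 0.633 ± 0.089 in MPP4, for WT and KO respectively. The ratio is of raw counts within a library and does not depend on its depth, but it does depend on the lengths of the 2 transcripts.

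**Figure D2:**
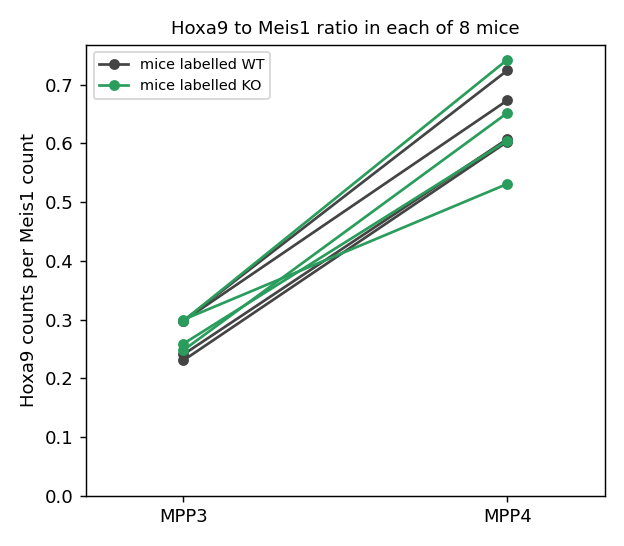
*Hoxa9* counts per *Meis1* count (vertical axis) in the MPP3 and MPP4 library of each of 8 mice, joined by a line, in mice labelled WT (grey) and KO (green). Every line rises from between 0.230 and 0.300 in MPP3 to between 0.531 and 0.743 in MPP4, and the 2 genotypes lie over each other.

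The sequences before the start sites of *Hoxa9* and *Meis1* are shown because these genes moved in opposite directions, and that of *Mecom* because it was the only one among the 12 start sites of the 9 genes with the letters of the Ebf1 motif. Each holds 250 bases upstream of a RefSeq start (GRCm38.p6, 5′ to 3′ on the gene's strand), with motif matches in capitals. The windows are chr6:52227371-52227620 for *Hoxa9*, chr11:19018970-19019219 for *Meis1* and chr3:30013205-30013454 for *Mecom*, all on the minus strand.
Hoxa9: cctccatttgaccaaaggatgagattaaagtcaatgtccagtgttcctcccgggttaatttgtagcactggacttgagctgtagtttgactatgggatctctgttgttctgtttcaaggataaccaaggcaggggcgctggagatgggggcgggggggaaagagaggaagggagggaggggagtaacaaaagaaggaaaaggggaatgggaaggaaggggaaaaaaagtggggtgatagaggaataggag
Meis1: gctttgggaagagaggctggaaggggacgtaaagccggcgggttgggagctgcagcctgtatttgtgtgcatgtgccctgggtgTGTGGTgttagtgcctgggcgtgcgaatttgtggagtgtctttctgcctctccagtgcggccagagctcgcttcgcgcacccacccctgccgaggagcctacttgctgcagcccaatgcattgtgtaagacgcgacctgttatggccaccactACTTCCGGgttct
Mecom: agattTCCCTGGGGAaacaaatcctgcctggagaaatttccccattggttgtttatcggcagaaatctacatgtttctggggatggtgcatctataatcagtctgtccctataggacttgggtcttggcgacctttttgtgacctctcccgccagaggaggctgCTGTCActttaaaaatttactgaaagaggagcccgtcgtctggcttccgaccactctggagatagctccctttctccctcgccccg
Both strands were searched for 7 motifs: that of Ebf1 (TCCC and GGGA with 2 bases between them, its own reverse complement), that of Meis (TGACAG), that of Runx (TGTGGT) and those of Pbx-Hox dimers (TGATTTAT), Hlf (TTACNTAA) and Ets factors (CCGGAAGT). The letters AGATAA stood for Gata factors. The *Hoxa9* window, with 3 CpG, matched none of the 7. That of *Meis1*, with 13 CpG, held a Runx match 166 bases before the start and an Ets match 13 bases before it, on the reverse strand. In the *Mecom* window the Ebf1 letters began 245 bases before the start and a Meis match on the reverse strand 86 bases before it. Of all 32851 RefSeq windows of this length, 0.779% held the Ebf1 letters, 15.9% Meis, 14% Runx and 2.88% Ets, and a match is a description of the letters only. Pbx-Hox, Hlf and Gata letters, in 0.837%, 2.06% and 9.99% of all windows, were in none of the 12 windows of the 9 genes. No 2 matches overlapped.

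*Hoxa7* (ENSMUSG00000038236, chr6:52214491-52221854), a middle gene of the cluster, varied least of the 9 genes between replicates, relative to its mean, in MPP3 KO and in both MPP4 groups. It was at 54.8, 43.9, 61.8 and 51.6 CPM in MPP3 of the mice labelled WT and at 52.1, 55.0, 53.9 and 55.8 CPM in MPP3 of those labelled KO. In MPP4 it was at 61.4, 59.1, 59.9 and 63.2 CPM in WT and at 71.1, 73.6, 70.7 and 73.5 CPM in KO. The populations overlapped in WT through MPP3 replicate 3 and were apart in KO, where MPP3 was lower (-0.41 ± 0.09, edgeR FDR = 0.00288). In WT the difference was -0.20 ± 0.08 (FDR = 0.168; with the mouse as a block FDR = 0.0931), and without MPP3 WT replicate 3 it was -0.28 and called (FDR = 0.0345). Exons of *Hoxa7* overlap the antisense gene *Hoxaas3*, which had 1237 counts in all libraries together.

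*Hoxa10* (ENSMUSG00000000938, chr6:52231197-52240854), the neighbour of *Hoxa9*, had 23.5, 26.3, 17.1 and 19.9 CPM in MPP3 and 29.8, 26.4, 33.9 and 25.6 CPM in MPP4 of the mice labelled WT. In those labelled KO it had 22.2, 19.4, 17.7 and 15.5 CPM in MPP3 and 20.6, 18.8, 25.5 and 23.5 CPM in MPP4. The difference in WT was just outside the threshold (-0.41 ± 0.15, edgeR FDR = 0.101), inside it with the mouse as a block (FDR = 0.0902), and inside it without MPP3 WT replicate 2 (-0.52, FDR = 0.0502), MPP3 KO replicate 1 (FDR = 0.0932), MPP3 KO replicate 4 (FDR = 0.0957) or MPP4 KO replicate 2 (FDR = 0.0981). In KO it was -0.24 ± 0.15 (FDR = 0.377), with overlapping populations.

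*Hoxa5* (ENSMUSG00000038253, chr6:52201754-52204587) had the fewest counts of the 9 genes, with 98 to 183 counts per MPP3 library and 156 to 296 per MPP4 library. Its means were 4.28 ± 0.91 and 3.77 ± 0.93 CPM (SD, n = 4) in MPP3 and 5.50 ± 1.44 and 5.19 ± 0.62 CPM in MPP4, for WT and KO. Although it was lower in MPP3 in 8 of 8 mice, by as little as 0.01 on the log2 scale in 1 of them, the population difference was not called in WT (-0.36 ± 0.25, edgeR FDR = 0.459) or KO (-0.46 ± 0.25, FDR = 0.288).

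Per kb of exon, expression along the cluster peaked at *Hoxa7* and *Hoxa9* (the plot of Hoxa genes along the cluster). In MPP4 WT, *Hoxa3* averaged 0.95, *Hoxa5* 2.93, *Hoxa7* 21.2, *Hoxa9* 34.0 and *Hoxa10* 8.85 CPM per kb. Among the 9 genes *Meis1* was highest in MPP3 (39.2 ± 2.1 CPM per kb in WT, 31.9 ± 3.3 in KO), above the range of every other. In MPP4 WT *Hoxa9* came first, but its range overlapped that of *Meis1* (27.5 ± 2.7), and in MPP4 KO *Hoxa9* (25.9 ± 5.8), *Hoxa7* (25.1 ± 0.5) and *Meis1* (21.6 ± 3.5) overlapped in turn. *Hlf*, *Hoxa9*, *Hoxa7* and *Procr* held ranks 2 to 5 in both MPP3 groups, with neighbours that overlapped. *Hoxa10* stood alone below them in both MPP3 groups, and *Mecom*, *Hoxa5* and *Mllt3* were lowest in every group, between 1.38 and 3.23 CPM per kb on average.

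**Figure D3:**
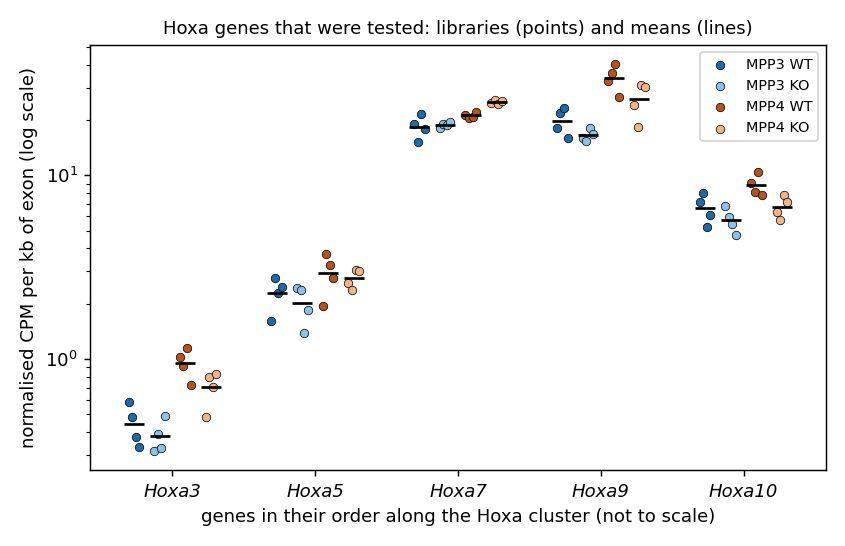
Normalised CPM per kb of exon (vertical axis, log scale) of the 5 Hoxa genes that passed the filter, in their order along the cluster (horizontal axis, not to scale), for 4 libraries per group (points) with group means (lines). Levels rise from *Hoxa3* to *Hoxa7* and *Hoxa9* and fall at *Hoxa10*, and MPP4 means (brown, orange) lie above MPP3 means (blue) of the same genotype for each gene.

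*Hlf* (ENSMUSG00000003949, chr11:90336536-90390895, minus strand), a PAR bZIP factor of quiescent stem cells, had 159.7, 150.7, 150.2 and 127.5 CPM in MPP3 and 146, 111, 90.3 and 82.0 CPM in MPP4 of the mice labelled WT. In those labelled KO it had 115, 88.6, 99.9 and 106 CPM in MPP3 and 72.1, 54.9, 74.3 and 85.6 CPM in MPP4. All 8 mice had more *Hlf* in MPP3, and the populations overlapped in WT only, through MPP4 replicate 1. The difference was 0.46 ± 0.16 (log2, edgeR FDR = 0.0809) in WT and 0.51 ± 0.16 (FDR = 0.0414) in KO. The WT call was lost without any 1 of MPP3 WT replicates 1, 2 or 3 or MPP4 WT replicates 2, 3 or 4 (FDR 0.127 to 0.232), and the KO call dropped out without replicate 1 of MPP3 KO (FDR = 0.111) or replicate 2 of MPP4 KO (FDR = 0.134). With the mouse as a block the FDR was 0.00221 in WT and 0.00121 in KO.

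*Mecom* (ENSMUSG00000027684, chr3:29951296-30548008, minus strand), a zinc finger factor required by long-term stem cells, had 43.7, 51.1, 32.3 and 33.3 CPM in MPP3 and 44.3, 30.2, 24.8 and 26.1 CPM in MPP4 of the mice labelled WT. In those labelled KO it had 32.4, 29.0, 24.7 and 34.4 CPM in MPP3 and 21.5, 14.3, 22.6 and 22.9 CPM in MPP4. It was higher in MPP3 in 7 of 8 mice, with separate ranges in KO (0.57 ± 0.20, edgeR FDR = 0.0794) and overlapping ones in WT (0.35 ± 0.20, FDR = 0.343; with the block FDR = 0.0938). Leaving out replicate 1, 2 or 4 of MPP3 KO or replicate 1 or 2 of MPP4 KO ended the KO call (FDR 0.119 to 0.223), and WT was called without MPP4 WT replicate 1 (0.57, FDR = 0.0739). The antisense gene *Mecomos*, with 326 counts in all, overlaps its exons.

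*Procr* (ENSMUSG00000027611, chr2:155751117-155755471, plus strand) had the largest population difference of the 9 genes in KO. MPP3 libraries held 33.2, 20.1, 39.9 and 28.1 CPM in WT and 44.2, 44.4, 23.1 and 25.1 CPM in KO. MPP4 libraries held 20.8, 19.7, 25.3 and 20.8 CPM in WT and 15.4, 18.8, 14.5 and 20.001 CPM in KO. The high pair in MPP3 KO were the males of 10 and 9 weeks and the low pair the females of 11 weeks; the part of age or sex was not tested. MPP3 exceeded MPP4 1.99-fold in KO (0.99 ± 0.23, edgeR FDR = 0.00699) and 1.40-fold in WT (0.49 ± 0.23, FDR = 0.214; with the block FDR = 0.0867). WT was called without MPP3 WT replicate 2 (0.64, FDR = 0.0842). Fitted on the 4 mice of 11 weeks alone, an alternative added after the values were seen, the KO difference was 0.48 ± 0.23 (FDR = 0.371).

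*Mllt3* (ENSMUSG00000028496, chr4:87769925-88033364, minus strand) had 23.6, 34.3, 25.7 and 17.3 CPM in MPP3 and 21.6, 17.97, 17.96 and 12.4 CPM in MPP4 of the mice labelled WT. In those labelled KO it had 23.2, 18.1, 20.4 and 21.1 CPM in MPP3 and 15.4, 12.8, 12.9 and 25.1 CPM in MPP4. MPP4 KO replicate 4 was the highest MPP4 library and the only one above the MPP3 library of its mouse. The difference was 0.53 ± 0.23 (edgeR FDR = 0.183; with the block FDR = 0.0415) in WT and 0.32 ± 0.23 (FDR = 0.450) in KO. Without MPP4 KO replicate 4 it was called in both (KO 0.60, FDR = 0.0781; WT 0.53, FDR = 0.0999), and in WT also without MPP3 WT replicate 4 (0.67, FDR = 0.0911).

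**Figure D4:**
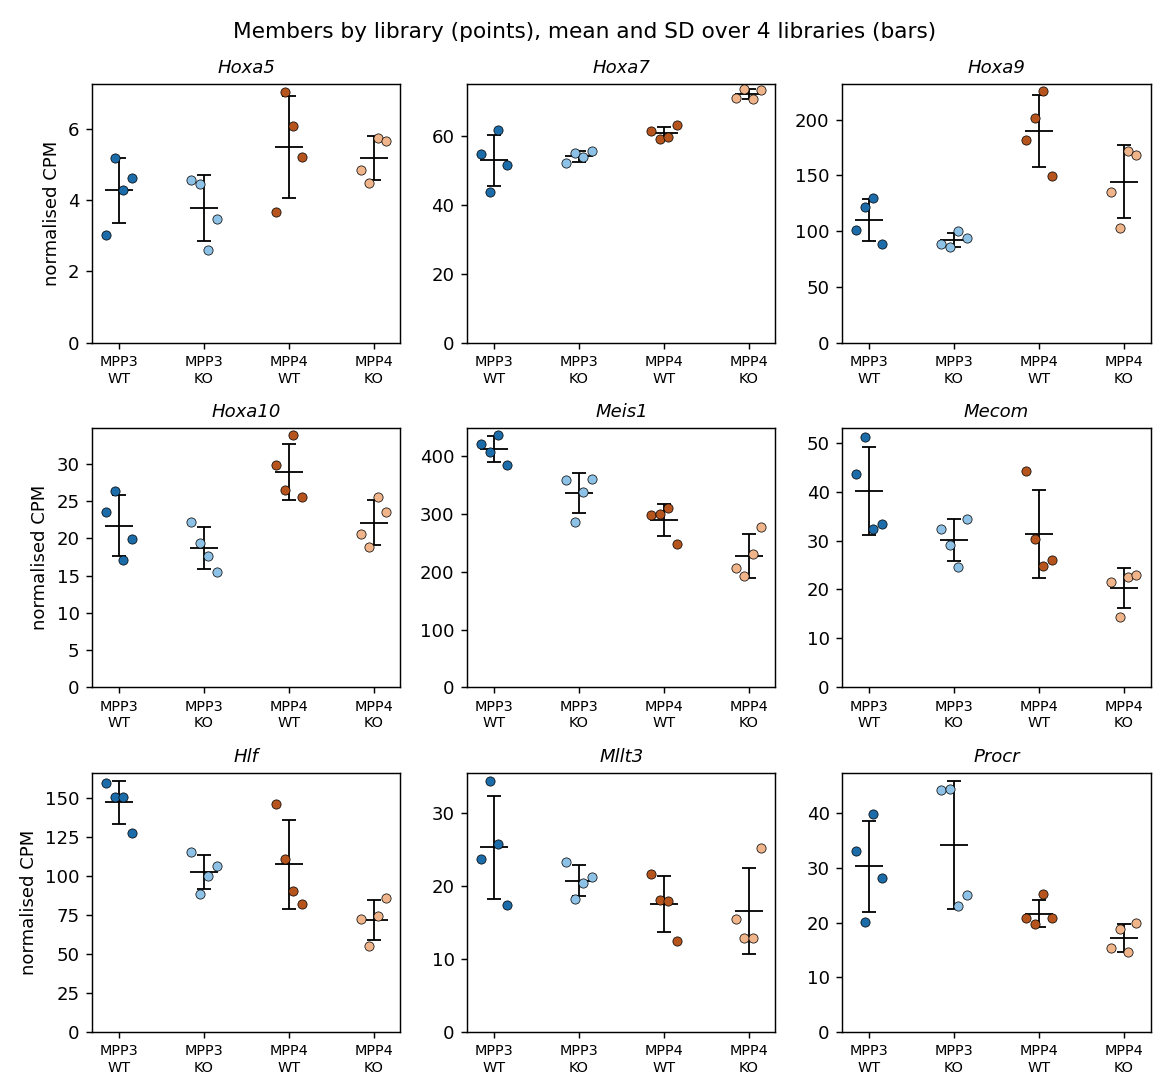
Normalised CPM (vertical axes, from 0) of each of the 9 genes in the 16 libraries, 4 per group (points), with mean and SD (black bars). *Hoxa9* and *Meis1* separate MPP3 from MPP4 in opposite directions, and *Hlf* is lower in all 4 MPP3 libraries labelled KO (88.6 to 115 CPM) than in those labelled WT (127.5 to 159.7 CPM).

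The populations also differed in markers of more differentiated cells. The summed level of 6 granulocyte and monocyte progenitor genes (all 6 at 1 CPM or more on average) was 5611 to 15658 CPM in MPP3 and 2062 to 3697 CPM in MPP4. Most of it was *Mpo*, and *Csf1r* alone was higher in MPP4. *Csf1r* averaged 21.2 and 35.7 CPM in MPP3 and 32.2 and 63.4 CPM in MPP4, for WT and KO. Megakaryocyte genes summed to 93.7 to 148 CPM in MPP3 (4 of 6 at 1 CPM or more) and 13.6 to 28.2 CPM in MPP4 (3 of 6). Mast cell and basophil genes summed to 168 to 381 CPM in MPP3 (all 6) and 19.1 to 36.2 CPM in MPP4 (2 of 6, with *Cma1* and *Gzmb* at 0), and lymphoid genes to 44.3 to 88.1 CPM in MPP3 (4 of 6) and 1192 to 1930 CPM in MPP4 (all 6). Erythroid genes summed to 47.3 to 72.0 CPM in MPP3 (all 6) and 15.6 to 45.05 CPM in MPP4 (5 of 6). In bulk RNA, fewer cells of a type and less RNA per cell cannot be told apart, and the part of these shifts in the levels of the 9 genes was not tested. Endothelial genes (3 of 6 at 1 CPM or more) were at 169.7 to 222 CPM in all libraries, nearly all of it *Pecam1* and *Emcn*, with *Cldn5* at 0 in MPP3. Group means of *Cdh5* and *Kdr* were at most 0.17 and 0.40 CPM. T cell genes (at most 4 of 6 at 1 CPM or more) were at 39.5 to 60.6 CPM in MPP3 and 132 to 190 CPM in MPP4, most of it *Lck*.

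None of the 9 genes was called between libraries labelled KO and WT, in MPP3 or in MPP4, although most were lower in KO. The lowest p-values in both populations belonged to *Hlf* and *Meis1*. Few genes were called at all: 0.0676% of those tested in MPP3 and 0.0169% in MPP4. At an unadjusted p under 0.05 there were 2 of 9 in MPP3 (10.5% of all genes) and 6 of 9 in MPP4 (12.8%). DESeq2's Wald test called *Hlf* in MPP3 (FDR = 0.0685; 1.82% of all genes) and *Hlf*, *Meis1* and *Mecom* in MPP4 (FDR = 0.0321, 0.0911 and 0.0967; 2.58%). The median log2 fold change of the 9 genes was -0.26 in MPP3, with 7 of 9 below 0, and -0.35 in MPP4, with 8 of 9 below 0, where the medians of all genes tested were -0.01 and -0.01.

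*Hlf* had the largest fold difference in MPP3, -0.52 ± 0.16 (edgeR FDR = 0.253), and the 4 libraries labelled KO all lay below the 4 labelled WT. In MPP4 it was -0.58 ± 0.16 (FDR = 0.179), where KO replicate 4 (85.6 CPM) overlapped WT replicate 4 (82.0 CPM). *Meis1* differed by -0.30 ± 0.11 in MPP3 (FDR = 0.319), with separate ranges, and by -0.35 ± 0.11 in MPP4 (FDR = 0.198). In MPP4 it was called without KO replicate 4, its highest library labelled KO (-0.46, FDR = 0.0762). *Mecom* was lower by 0.63 ± 0.20 in MPP4 (-0.63, FDR = 0.226), with every library labelled KO below every one labelled WT, and overlapped in MPP3 (-0.41 ± 0.20, FDR = 0.506). Genes with all libraries labelled KO below those labelled WT were 2 of the 9 in MPP3 (*Hlf*, *Meis1*), against 2.41% of all genes, and 2 in MPP4 (*Mecom*, *Hoxa10*), against 4.44%.

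Among the Hoxa genes, *Hoxa7* was the exception in direction. In MPP4 its 4 libraries labelled KO (70.7 to 73.6 CPM) all lay above the 4 labelled WT (59.1 to 63.2 CPM), as did 2.83% of all genes, with a difference of 0.25 ± 0.08 (edgeR FDR = 0.238). *Hoxa10* lay below in MPP4 (-0.39 ± 0.15, FDR = 0.294) by a narrow margin, 25.5 against 25.6 CPM for the nearest libraries, and *Hoxa9* overlapped (-0.39 ± 0.16, FDR = 0.303). In MPP3 the 4 Hoxa genes differed by -0.26 to 0.03, with FDR values of 0.619 to 0.945. *Procr* differed by 0.17 ± 0.23 in MPP3 and -0.33 ± 0.23 in MPP4, and *Mllt3* by -0.28 ± 0.23 and -0.08 ± 0.23, with FDR values of 0.557 or more. Granulocyte and monocyte progenitor genes (all 6 at 1 CPM or more) had a median sum of 8095 CPM under the WT and 13881 CPM under the KO label in MPP3. Their ranges overlapped, at 5611 to 9385 and 6691 to 15658 CPM. In MPP4 the medians were 2339 and 3254 CPM, with ranges of 2062 to 2731 and 2433 to 3697 CPM that overlapped as well. The 6 B cell genes summed to 72.1 to 386 CPM under the WT label in MPP3 (3 of 6 at 1 CPM or more, nearly all of it *Igkc*) and to 1.68 to 65.4 CPM under the KO label (2 of 6). In MPP4 they summed to 7.03 to 21.5 CPM (5 of 6) and 1.31 to 2.77 CPM (1 of 6, with *Pax5* at 0). The part of either list in these differences was not tested.

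Age moved with the genotype labels, and the differences shrank for several genes when age in weeks was a term of the fit. *Hlf* went to -0.29 ± 0.17 in MPP3 and -0.36 ± 0.16 in MPP4, *Meis1* to -0.10 ± 0.09 and -0.16 ± 0.09, and *Hoxa9* to 0.01 ± 0.15 and -0.15 ± 0.15. *Mecom* was at -0.48 ± 0.24 in MPP4. *Hoxa5*, *Hoxa7* and *Procr* lay further from 0 in MPP4 with age than without it, at -0.25 ± 0.29, 0.29 ± 0.10 and -0.44 ± 0.28, and so did *Hoxa5* in MPP3 (-0.37 ± 0.30) and *Hoxa7* in MPP3 (0.07 ± 0.10). *Mllt3* in MPP4 changed sign with age as a term and also lay further from 0. None of the 9 genes was called (edgeR, smallest FDR = 0.494), and 2 of 9 in MPP4 and 0 of 9 in MPP3 had an unadjusted p under 0.05, against 8.51% and 8.7% of all genes in the same fit. In the 4 mice of 11 weeks, 2 per genotype, *Hlf* differed by -0.43 ± 0.16 in MPP3 and -0.27 ± 0.16 in MPP4, and *Meis1* by -0.18 ± 0.12 and -0.10 ± 0.12, again with no call (smallest FDR = 0.582). These 4 mice were 3 females and 1 male.

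**Figure D5:**
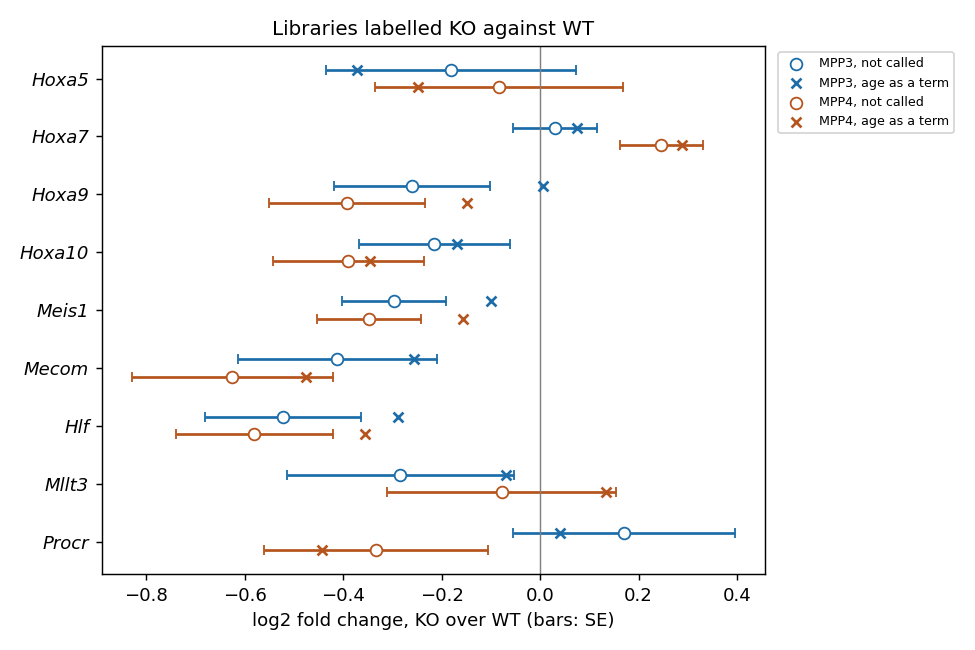
Log2 fold change of libraries labelled KO over WT (horizontal axis, bars are standard errors) for the 9 genes (vertical axis) in MPP3 (blue) and MPP4 (orange). Open circles show that none was called at an FDR under 0.1, and crosses give the value with age as a term, which lies nearer to 0 for *Hlf*, *Meis1* and *Hoxa9* in both populations.

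The test of whether the genotype difference depended on the population called none of the 9 genes, and 0% of all genes tested (edgeR FDR = 1.000 for each). None of the 9 had an unadjusted p under 0.05, and DESeq2 called none. The lowest p, 0.0909, belonged to *Hoxa7*, whose difference was 0.22 less in MPP3 than in MPP4 (-0.22 ± 0.12). *Procr* had the widest gap (0.50 ± 0.32), and the other 7 genes lay between -0.21 and 0.21. These values come from the fit without a block, which leaves out the pairing by mouse. With the mouse as a block none of the 9 was called either (smallest edgeR FDR = 0.878), against 0.0169% of all genes. None of them had an unadjusted p under 0.05 in that fit.

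Other genes of the same systems were taken from lists. Of 39 Hox genes only 6 passed the filter, and all 6 were on the MPP4 side in both genotypes (median log2 fold change -0.39 in WT and -0.44 in KO, against 0.00 and -0.01 for all genes). The filter asks for a mean above 100 counts in only 1 group, so a gene near that limit can pass through its higher group. Besides the members, *Hoxa3*, an anterior gene of the cluster, was lower in MPP3 in WT (2.66 ± 0.68 against 5.73 ± 1.08 CPM; -1.11 ± 0.26, edgeR FDR = 0.00974) and in KO (-0.88 ± 0.26, FDR = 0.0338). It lay near the limit of the filter, with 71 to 117 counts per MPP3 library and 101 to 335 per MPP4 library. The direction of *Hoxa3* is thus not independent of the filter. The sixth, *Hoxb4*, chosen after its values were seen, was not called (-0.24 ± 0.37 in WT, FDR = 0.792). *Hoxb5*, named for the same reason as a stem cell marker, missed the filter. Its counts per library were 53, 86, 51 and 27 in MPP3 and 34, 32, 61 and 15 in MPP4 of the mice labelled WT, and 99, 49, 77 and 53 in MPP3 and 25, 14, 17 and 11 in MPP4 of those labelled KO. With all genes that had a count in the fit, it was higher in MPP3 in KO (1.91 ± 0.52, FDR = 0.0368) and was not called in WT (0.96 ± 0.50, FDR = 0.421).

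Of 9 Meis, Pbx and Pknox genes 7 were tested, and 3 were higher and 1 lower in MPP3 in WT, 1 higher and 1 lower in KO, where 15.1% and 17.9% of all genes were called. *Pbx3*, a Pbx partner of Hoxa9, averaged 3.64 ± 0.79 CPM in MPP3 WT and 1.64 ± 0.77 CPM in MPP4 WT (1.14 ± 0.34, edgeR FDR = 0.0418). In KO it averaged 2.69 and 2.14 CPM and was not called (0.33 ± 0.34, FDR = 0.630). *Meis3* went against *Meis1*, with lower levels in MPP3 in both genotypes (-1.58 ± 0.52, FDR = 0.0646, and -1.70 ± 0.53, FDR = 0.0438) and in 8 of 8 mice. *Pbx3* and *Meis3* were low, and each can have passed the filter through the population where it was higher. The call of *Pbx3* ended without MPP3 WT replicate 3 or MPP4 WT replicate 2 or 3 (FDR up to 0.123), that of *Meis3* in WT without MPP3 WT replicate 2 or 3 or MPP4 WT replicate 1 or 2 (FDR up to 0.163) and in KO without MPP3 KO replicate 3 or MPP4 KO replicate 4 (FDR up to 0.125), and the list's count in WT went from 4 to 1 without MPP3 WT replicate 3 or MPP4 WT replicate 2. Of 12 genes that keep Hox genes active 9 were tested, with none called in WT (smallest edgeR FDR = 0.183, 1 of 9 at an unadjusted p under 0.05, against 22.1% of all genes) and *Dot1l*, the H3K79 methyltransferase, lower in MPP3 in KO (-0.40 ± 0.13, FDR = 0.0559). It was no longer called without replicate 2 or 3 of MPP3 KO or replicate 1 or 4 of MPP4 KO (FDR up to 0.133). With the mouse as a block 4 of 6 Hox genes and 3 of 9 activators were called in WT (24.8% of all genes), and 2 of 9 activators in KO (28.3%).

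Among 20 stem cell regulators, 19 of them tested, 4 were higher and 1 lower in MPP3 in WT, and 5 were higher and 1 lower in KO (all genes 15.1% and 17.9%). *Gata2*, a zinc finger factor of stem, megakaryocyte and mast cells, led both (1.80 ± 0.18, edgeR FDR = 3.31e-06 in WT and 1.97 ± 0.18, FDR = 1.11e-06 in KO). *Fli1*, an Ets factor, was higher by 0.22 ± 0.06 (FDR = 0.0269) and 0.36 ± 0.06. The rest were *Hlf* and *Tal1* in both genotypes and *Mecom* in KO, *Tal1* being named after its values were seen. *Nkx2-3* was lower in WT (-0.72 ± 0.19, FDR = 0.0193) and *Mycn* in KO (-0.64 ± 0.14, FDR = 0.0046). The list's median difference was 0.05 in WT and 0.07 in KO, near that of all genes.

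Of 15 stem cell surface and signature genes 11 were tested, of which 7 were higher and 1 lower in MPP3 in WT, and 8 higher and 1 lower in KO, against 15.1% and 17.9% of all genes. The medians of the list were 1.284 and 1.482, against 0.00 and -0.01 for all genes. *Esam*, an adhesion molecule of stem cells and endothelium, averaged 50.3 CPM in MPP3 WT and 8.80 CPM in MPP4 WT (2.51 ± 0.21, edgeR FDR = 5.3e-07), and *Pdzk1ip1* 47.2 and 14.0 CPM (1.75 ± 0.15, FDR = 7.63e-07). *Ly6a*, which encodes Sca1, the sort marker of both populations, was lower in MPP3 (-0.70 ± 0.13, FDR = 0.00135, in WT). Of 10 genes given as Hoxa9 and Meis1 targets 9 were tested. *Cdk6* was higher in MPP3 (0.46 ± 0.11, FDR = 0.00905, in WT), while *Flt3*, a marker of the MPP4 gate, and *Bcl2* (-0.61 ± 0.10, FDR = 0.000408) were lower in WT. *Cd34*, also lower and named after its values were seen, was just inside the threshold (-0.13 ± 0.05, FDR = 0.0966) and was not called by DESeq2 (FDR = 0.132) or with age as a term (FDR = 0.1003). In KO 1 was higher and 2 lower (17.9% of all genes called), and with the mouse as a block 3 were higher and 4 lower (28.3%). Between genotypes no gene of these 6 lists was called in either population by edgeR in the fit of all 16 libraries without a covariate or block. With sex as a term 3 stem cell regulators and 2 surface genes were called in MPP4. Without MPP3 KO replicate 1, 1 regulator was called in MPP3, and in MPP4 1 regulator was called without MPP4 KO replicate 3 and 1 Meis or Pbx gene (*Meis1*) without MPP4 KO replicate 4. At an unadjusted p under 0.05 were 11 of 19 stem cell regulators in MPP4 (12.8% of all genes), with a median of -0.31 (all genes -0.01), and 4 of 19 in MPP3 (10.5% of all genes), with a median of -0.19. The 11 in MPP4 were of both directions, *Mycn* (named here after its values were seen) being higher in KO (0.33 ± 0.14). Of the 19 regulators in MPP4, 13 lay below 0 and 6 above. In MPP4, with age as a term 6 of 19 were at an unadjusted p under 0.05 (median -0.24, 8.51% of all genes) and in the 4 mice of 11 weeks 4 of 19 (median -0.21, 5.93% of all genes). DESeq2 called 4 regulators, 3 surface genes and 1 Meis or Pbx gene in MPP4 (2.58% of all genes), 2 regulators and 1 surface gene in MPP3 (1.82%), and none of the Hox, activator and target lists in either.

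The gene of the surface list nearest to a genotype call was *Tek*, whose promoter drives the Cre transgene and which was named after its values were seen. It averaged 3.48 ± 1.90 CPM in MPP4 WT and 12.8 ± 2.3 CPM in MPP4 KO (1.89 ± 0.34, edgeR FDR = 0.110), with separate ranges, and 24.7 ± 8.4 and 26.4 ± 4.9 CPM in MPP3 (0.10 ± 0.32, FDR = 0.957). With the replicate number as a block, which names different mice in the 2 genotypes, it was called in MPP4 (1.97 ± 0.32, FDR = 0.0444; 0.194% of all genes called), and DESeq2 called it too (FDR = 4.34e-06). Its interaction was -1.79 ± 0.46, not called without the block (edgeR FDR = 1.000) and called with the mouse as a block (-1.89 ± 0.25, FDR = 0.0230; 0.0169% of all genes called) and by DESeq2 (FDR = 0.0690). The list held 1 call in MPP4 without MPP3 WT replicate 1, MPP4 WT replicate 1 or 2, or MPP4 KO replicate 3 or 4.

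Over the 16 libraries, likeness to a gene was measured by the root mean square difference of log2 CPM after centring each gene. The genes closest to *Hoxa9* among all tested were *St8sia4*, a polysialyltransferase gene (0.174, where the spread of *Hoxa9* itself was 0.444), and *Ppcdc*, of coenzyme A synthesis (0.187). *Hoxa10* ranked 132 in that order and *Meis1* 9884. The genes closest to *Meis1* were *Car2*, a carbonic anhydrase gene (0.133, against a spread of 0.347), and *Kit*, the stem cell factor receptor and a sort marker (0.137), and *Hlf* ranked 28 (0.188). *Kit* averaged 777 and 666 CPM in MPP3 and 545 and 407 CPM in MPP4, for WT and KO, and it was called between genotypes in MPP4 (-0.42 ± 0.07, edgeR FDR = 0.0560). These distances are descriptions over libraries that share populations and mice.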

How the data were processed

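Total RNA of MPP3 and MPP4 cells of 8 mice was sequenced as paired reads, from NEBNext SingleCell/Low Input libraries in the study's methods. Per the labels and the submitters' processing notes, the authors aligned reads to mm10 with STAR 2.7.3a, counted them per gene with featureCounts 2.0.0 and deposited raw read counts without normalisation, which were the input of all tests. A deposited table of counts divided by size factors was not used. The annotation release and the use of strand in counting are not given in the sources used here, so counts of genes with overlapping exons are uncertain. Symbols came from GENCODE (GRCm38), which named 47310 of 47937 identifiers. No row was without a gene.

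The 9 genes, the 6 lists and the tests were chosen with earlier results of these data known. The filter kept the 11831 genes whose mean count exceeded 100 in at least 1 group, among 26699 with a count. They were tested with edgeR 4.0.16 under R 4.3.3 (TMM, quasi-likelihood F-test, legacy deviances) in 1 fit of 16 libraries with 1 mean per group and no covariate, and p-values were adjusted over all 11831 genes by the Benjamini-Hochberg method. Normalised CPM were scaled by the TMM library sizes, and the upper limit for a count of 0, set at 3 counts, was worth 0.0617 to 0.118 CPM. Reads carry no molecular identifiers, so such limits cover counting error only. Replicates were separate mice, and their pairs differed by 31.2 to 114 chi-square units per gene, where sampling noise gives about 1. The replicate number marks 1 mouse in both populations: deviations of the 2 libraries of a mouse correlated at 0.269 to 0.548 in all 8 mice, so the populations are paired by mouse, while equal numbers in different genotypes (-0.464 to 0.127) name different mice.

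Named were the 9 genes in every comparison, at most 2 called genes per list, direction and comparison with the smallest FDR, *Ebf1*, and the 2 genes closest to *Hoxa9* and to *Meis1*. Others are named as chosen after their values were seen. The values of 1 further gene of the lists are not reported here. The alternatives were RLE scaling, DESeq2 1.42.0, other count filters, separate fits, age, sex or mouse as a term, newer deviances, each library or mouse left out and, added after the data were seen, the 4 mice of 11 weeks alone. The code was tested on simulated counts.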

Additional observations from a re-analysis of the deposited data

Results flagged for a closer look

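Each of the 9 genes was checked in each of the 4 groups, 36 sets of 4 libraries, for a highest or lowest library whose gap to its neighbour took a larger share of the whole range than Dixon's 95% limit for 4 values allows. Only 1 was found: *Mecom* in MPP4 KO, where replicate 2, a male of 9 weeks and the youngest mouse, had 14.3 CPM (537 counts) and the others 21.5, 22.6 and 22.9 CPM. Chance gives about 1 such set in 20.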

How the results depend on the processing

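Over 9 alternatives that kept all libraries, 16 left-out libraries, 8 left-out mice and the 4 mice of 11 weeks, 1427 single values of the 9 genes kept direction and side of the threshold, 27 gained a call, 32 lost one and 35 changed sign. The count of members called in WT between populations was 8 with the mouse as a replicate block (3 without). It was 2 to 8 over the 9 alternatives that kept all libraries and 2 to 4 with a library or mouse left out. In KO it was 5 to 6 over the 9 alternatives that kept all libraries, 2 in the 4 mice of 11 weeks and 4 to 7 with a library or mouse left out. Between genotypes it was 1 in MPP3 with DESeq2, 3 in MPP4 with DESeq2 and 1 in MPP4 with sex as a term (*Hlf*, FDR = 0.0731), and 0 to 1 in MPP4 with a library or mouse left out. The block changed no other count of members by more than 1.5 times. Of the sign changes, with age as a term *Hoxa9* between genotypes in MPP3 was 0.0069 and *Mllt3* in MPP4 0.13. In the 4 mice of 11 weeks *Mllt3* in MPP4 was 0.32 and *Procr* in MPP3 -0.00394, and the interaction was -0.065 for *Hoxa9*, -0.39 for *Hoxa10*, -0.076 for *Meis1*, -0.21 for *Mecom* and -0.16 for *Hlf*. With 1 library left out, the genotype difference ranged from -0.24 to 0.058 for *Hoxa5* in MPP4, -0.046 to 0.11 for *Hoxa7* in MPP3 and -0.35 to 0.040 for *Mllt3* in MPP4 (with 1 mouse left out -0.23 to 0.057, -0.046 to 0.11 and -0.35 to 0.044). The interaction ranged from -0.24 to 0.05 for *Hoxa5*, -0.00064 to 0.23 for *Hoxa9*, 0.08 to 0.28 for *Hoxa10*, -0.020 to 0.16 for *Meis1*, -0.00091 to 0.36 for *Mecom*, -0.13 to 0.17 for *Hlf* and -0.35 to 0.069 for *Mllt3* (with 1 mouse left out -0.25 to 0.10, 0.03 to 0.21, -0.0094 to 0.32, -0.024 to 0.13, 0.04 to 0.37, -0.09 to 0.14 and -0.36 to 0.06). The cause of these changes was not tested. Each genotype had 4 mice, of unequal ages, and *Hoxa5* had 156 to 296 counts per MPP4 library.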
